A study of Mus musculus with 24 samples.

Results

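The matrix metalloproteinases (Mmp), the ADAMTS proteases (Adamts), their non-catalytic relatives (Adamtsl) and the tissue inhibitors of metalloproteinases (Timp) were followed in mouse cortical RNA. Members were matched by gene symbol, and these families were chosen with earlier results of these data known. Of 43346 genes in the count table, 51 carried such a symbol, and the 44 with at least 10 counts in at least 6 of the 24 libraries are reported. They comprised 16 of 23 Mmp genes, all 19 Adamts genes, all 5 Adamtsl genes and all 4 Timp genes. All 44 were among the 21891 genes tested. Each library came from the cortex of 1 mouse, and 4 groups of 6 libraries were formed by the genotype label and the stimulus label. The groups were mice labelled Abca7 with LPS, mice labelled Abca7 with no stimulus, control mice with LPS, and control mice with no stimulus. LPS (lipopolysaccharide), which covers Gram-negative bacteria and is sensed by TLR4, was injected according to the series text. The same text describes the Abca7 animals as heterozygous. The labels give no strain, allele or sex, and no dose, route or interval of the injection. The mice were 54 to 56 days old in the LPS groups and 55 to 58 days old in the unstimulated groups. Every title carries its own number, taken here as that of an animal, so p-values measure the spread between these libraries. In whole cortex, fewer cells of a type and less RNA per cell cannot be told apart.

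Matrix metalloproteinases are zinc-dependent endopeptidases that are made as inactive precursors and, once activated, cut collagens, laminins, proteoglycans, cytokines and other extracellular proteins. Some are secreted and others are tethered to the cell surface. ADAMTS proteases are secreted enzymes with thrombospondin repeats: one branch cuts aggrecan, versican, brevican and neurocan, the proteoglycans that fill the extracellular space of the brain, and another trims procollagens. TIMPs bind the active site of these enzymes and block it. In the brain both enzyme families are known for acting on the vascular basement membrane and on perineuronal nets.

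Libraries held between 48149131 and 75741388 counts. Abca7, the lipid transporter named in the genotype label, had 25.2, 30.0 and 31.5 CPM (counts over the TMM-scaled library size, times 1000000; lowest, median and highest library) in LPS mice labelled Abca7, against 20.6, 25.6 and 27.1 CPM in LPS control mice. Without LPS it had 29.9, 31.3 and 34.8 CPM in mice labelled Abca7, against 26.6, 28.0 and 32.2 CPM in control mice. The log2 difference of mice labelled Abca7 over control mice was 0.26 ± 0.07 with LPS (SE; adjusted p = 0.27) and 0.17 ± 0.07 without (adjusted p = 0.61). Its RNA was thus not lower in the libraries labelled Abca7, and the label is used here as a label only. Neuronal markers were abundant throughout, at a summed 5084 to 5788 CPM over 8 genes per library. A pair of features touch the results below. Replicate 4 of the LPS mice labelled Abca7 lay below the other 5 libraries of its group in 10 of the 13 members that changed there. Ttr, a marker of choroid plexus, was at 165 to 485 CPM in LPS control mice, but among unstimulated control mice it was at 261 CPM in replicate 1 and at 4.94 to 19.7 CPM in the other 5. In mice labelled Abca7 the Ttr level ranged from 24.3 to 381 CPM with LPS and from 48 to 449 CPM without.

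LPS raised a small set of inducible proteases together with the inhibitor Timp1, and left most of the abundant family members near their unstimulated levels. Mmp3, Mmp12 and Mmp13, which were at or close to 0 without LPS, rose by 4.10 to 6.45 on the log2 scale where the unstimulated group held counts. Mmp3 had no counts in the unstimulated libraries of control mice. Against a floor of 3 counts for that group, it was 94.9-fold higher with LPS. Adamts9, Adamts1, Timp1 and Adamts14 rose by 1.26 to 3.11 on the log2 scale. Every other change that passed was smaller than 1 on that scale, and Mmp28 and Adamts10 fell. In mice labelled Abca7, 13 of 44 members passed an adjusted p of 0.05 (edgeR, quasi-likelihood F test), 11 higher and 2 lower. Over all genes tested there, 11.8% passed, 6.65% higher and 5.18% lower. In control mice 17 of 44 passed, 15 higher and 2 lower, against 17.3%, 9.39% and 7.92% of all genes. The median log2 fold change of the 44 members was 0.04 in mice labelled Abca7 and 0.09 in control mice, beside 0.01 for all genes in each. Mmp3, Mmp12 and Mmp13 reached 10 counts only in LPS libraries, so that they entered the set through the group where they were high. Without them, 8 higher and 2 lower of 41 passed in mice labelled Abca7, and 12 higher and 2 lower of 41 in control mice. At matched ages the 13 members kept their direction at 55 days (2 LPS against 3 unstimulated libraries), and 12 of them at 56 days (2 against 1), Adamts2 being the exception. All 17 kept it in control mice at 55 days (2 against 2) and at 56 days (3 against 3). The same libraries had chosen these members, so this agreement was partly set in advance and is no separate support.

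The same 12 members passed in both genotypes, all in the same direction. Mmp14 passed in mice labelled Abca7 and not in control mice, while Adamts4, Adamts5, Adamts8, Timp2 and Timp3 passed in control mice and not in mice labelled Abca7. The test of the difference between the LPS effects (the interaction) was passed by none of the 44. By family, 5 Mmp genes rose and 1 fell among 16 in mice labelled Abca7, against 4 and 1 in control mice. Without Mmp3, Mmp12 and Mmp13, 2 of 13 Mmp genes rose and 1 fell in mice labelled Abca7, and 1 rose and 1 fell in control mice. Over all genes tested, 11.8% passed in mice labelled Abca7 and 17.3% in control mice. Of 19 Adamts genes, 5 rose and 1 fell in mice labelled Abca7, and 8 rose and 1 fell in control mice. Of 4 Timp genes, 1 rose in mice labelled Abca7 and 3 in control mice. The 26 members that passed in neither genotype had log2 fold changes from −0.74 (Adamts12) to 1.24 (Adamts19) in mice labelled Abca7 and from −0.58 to 0.77, for the same genes, in control mice. None of the 5 Adamtsl genes passed in either genotype with edgeR or DESeq2, with 0 and 1 of them at an unadjusted p under 0.05.

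**Figure D1:**
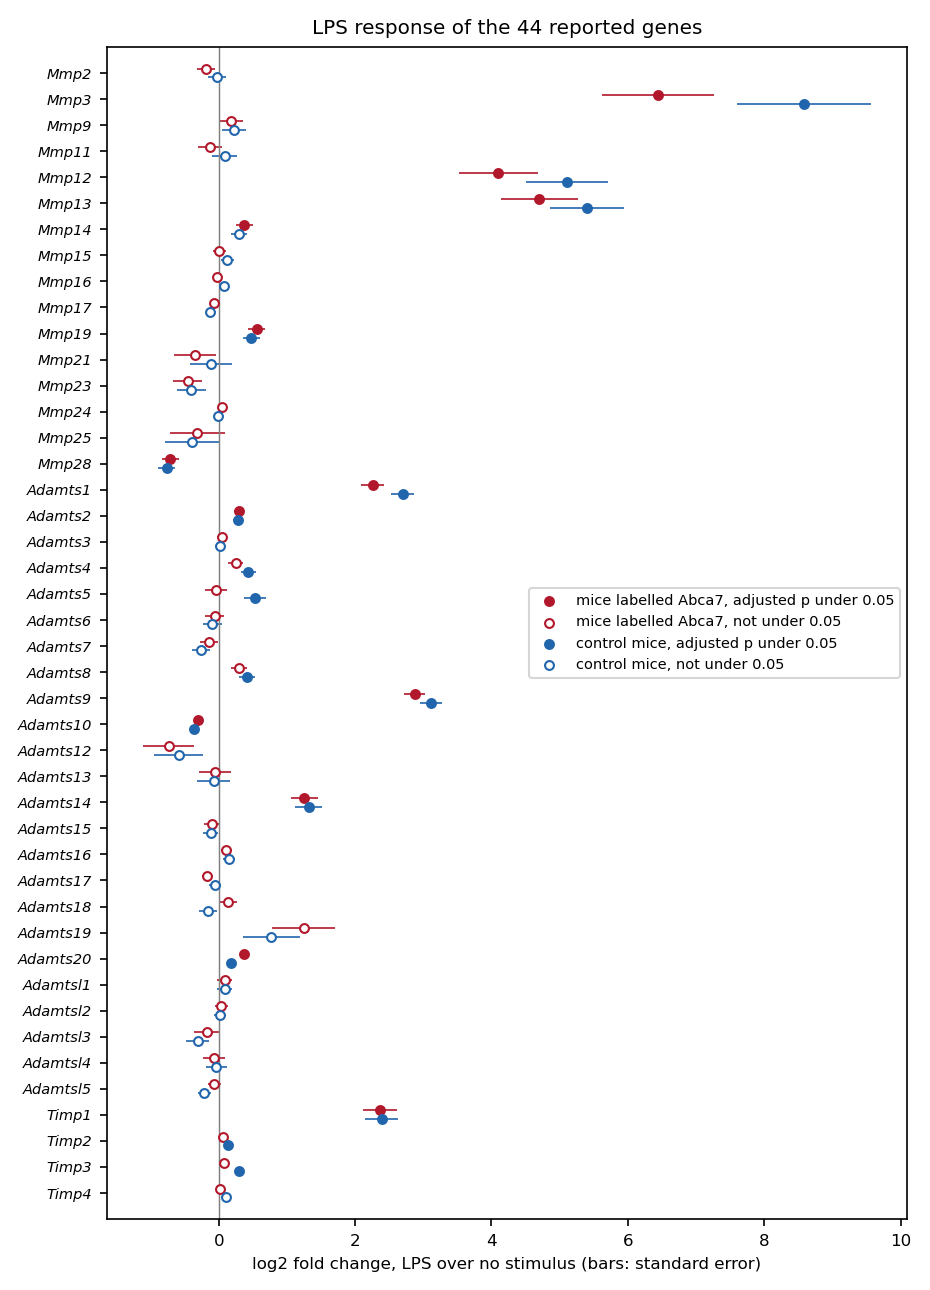
Log2 fold change of LPS over no stimulus for each of the 44 reported genes, with its standard error, in mice labelled Abca7 (red) and control mice (blue). Filled points passed an adjusted p of 0.05. Mmp3, Mmp12 and Mmp13 lie beyond 4, the Mmp3 point of control mice resting on the count edgeR adds to a group at 0, with Adamts1, Adamts9 and Timp1 between 2.26 and 3.11 and most other genes near 0.

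Mmp3, Mmp12 and Mmp13 lie in one cluster of 10 Mmp genes that spans 427 kb of chromosome 9 (mm10, chr9:7272514-7699585). In order of coordinate these are Mmp13, Mmp12, Mmp1b, Mmp3, Mmp1a, Mmp10, Mmp8, Mmp27, Mmp20 and Mmp7. The other 7 genes of the cluster are the 7 matched genes that missed the count rule. Sequences upstream of their start sites are shown because members of the cluster that were induced and members with no counts carry the same letters there. Below are the 100 bases before the RefSeq start (GRCm38.p6) of the 3 induced genes, of Mmp10, which had traces of counts, and of Mmp1a and Mmp7, which had none. Capitals mark the AP-1 letters (TGACTCA or TGAGTCA, searched on both strands) and TATAAA (searched on both strands).
Mmp13, chr9:7272414-7272513, plus strand: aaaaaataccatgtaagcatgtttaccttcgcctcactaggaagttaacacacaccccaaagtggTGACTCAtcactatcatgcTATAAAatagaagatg
Mmp12 (its second RefSeq start), chr9:7347274-7347373, plus strand: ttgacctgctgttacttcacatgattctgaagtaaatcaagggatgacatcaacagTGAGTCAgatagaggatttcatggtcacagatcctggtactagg
Mmp3, chr9:7445722-7445821, plus strand: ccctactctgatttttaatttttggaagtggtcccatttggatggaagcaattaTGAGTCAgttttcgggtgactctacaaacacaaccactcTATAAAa
Mmp10, chr9:7502242-7502341, plus strand: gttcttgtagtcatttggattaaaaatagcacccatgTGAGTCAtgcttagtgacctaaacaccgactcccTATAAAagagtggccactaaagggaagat
Mmp1a, chr9:7464041-7464140, plus strand: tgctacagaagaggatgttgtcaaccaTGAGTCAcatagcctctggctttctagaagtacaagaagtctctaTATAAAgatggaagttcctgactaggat
Mmp7, chr9:7691990-7692089, plus strand: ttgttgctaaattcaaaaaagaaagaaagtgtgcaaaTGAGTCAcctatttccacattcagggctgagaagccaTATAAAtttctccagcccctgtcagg

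In the 250 bases before the start, the AP-1 letters occurred in 7 of the 10 genes of the cluster. They occurred in 0 of the 26 other members searched, and the promoter set used did not hold every member. The same letters occurred in 4.46% of 32851 mouse promoters of the same length. Shares of all promoters here are counted per promoter, while a gene was counted if any of its starts matched. Mmp7 and Mmp12 each had 1 start with the AP-1 letters and 1 without. The match ended 28 bases before the start in Mmp13, 37 in Mmp12, 39 in Mmp3, 56 in Mmp10 and Mmp7, 66 in Mmp1a and 86 in Mmp1b. TATAAA was found in 7 of the 10 genes of the cluster and in 12.4% of all promoters; Mmp12 had none. Mmp8 and Mmp27 had neither set of letters in this window. The upstream Mmp12 start had no AP-1 letters but a match to the NF-kB motif, which 7.25% of all promoters held. A match is a description of letters and not of a factor bound there.

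Mmp13 (collagenase-3, which cuts fibrillar collagen) had the highest mean level per kilobase of the cluster. It had 0.118, 1.13 and 1.93 CPM (lowest, median, highest) in LPS mice labelled Abca7, against 0, 0.0246 and 0.115 CPM without LPS. In control mice it had 1.20, 1.97 and 2.26 CPM with LPS, against 0, 0.0461 and 0.0711 CPM without. The groups did not overlap in either genotype, although replicate 4 of the LPS mice labelled Abca7 was only just above the highest unstimulated library. These libraries held 6 and 5 counts, and unstimulated replicate 4 of the same genotype also held 6. Summed counts were 425 with LPS and 14 without in mice labelled Abca7, a depth-scaled ratio of 28.2 (exact 95% interval 16.6 to 52.0, counting error only). In control mice they were 683 and 15, a ratio of 43.7 (26.3 to 78.4). The fitted log2 fold change was 4.70 ± 0.56 (SE; adjusted p = 3.7e-07) in mice labelled Abca7 and 5.4 ± 0.54 (adjusted p = 1.0e-08) in control mice, with n = 6 libraries per group here and throughout.

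Mmp12 (macrophage metalloelastase) was detected in all LPS libraries and in 9 of 12 unstimulated ones, at far lower levels. It had 0.118, 0.643 and 1.91 CPM in LPS mice labelled Abca7, against 0, 0.0511 and 0.0719 CPM without LPS. In LPS control mice it had 0.523, 1.01 and 1.55 CPM, against 0, 0.0260 and 0.0592 CPM without LPS. The groups again did not overlap, and the log2 fold changes were 4.10 ± 0.58 (adjusted p = 5.4e-06) and 5.10 ± 0.60 (adjusted p = 2.3e-07). Only 2.17% of its exonic bases overlap another gene, Mmp1b on the opposite strand, which had no counts.

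Mmp3 (stromelysin-1, which cuts proteoglycans and laminin and activates other Mmp precursors) was close to absent without LPS. The LPS libraries of mice labelled Abca7 had 0.0392, 0.582 and 1.40 CPM, against 0, 0 and 0.0359 CPM in the unstimulated ones. With LPS the control mice had 0.457, 0.806 and 1.18 CPM, and all 6 of their libraries without LPS were at 0. Against a floor of 3 counts over the unstimulated control group, this was 94.9-fold higher with LPS, with the 297 LPS counts taken as exact. In mice labelled Abca7, 260 counts with LPS stood against 2 without, a ratio of 121 (33.1 to 1002). The fitted log2 fold changes were 6.45 ± 0.82 (adjusted p = 4.3e-06) in mice labelled Abca7 and 8.58 ± 0.98 (adjusted p = 6.5e-07) in control mice, and the value in control mice depends on the small count edgeR adds to a group at 0. Of its 50-base sequences, 8.39% also occur in another gene's transcripts.

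The remaining genes of the cluster stayed at or near 0. Mmp10 (stromelysin-2) had 3 counts in 2 LPS libraries of mice labelled Abca7 and 7 counts in 4 LPS libraries of control mice, with 0 counts in all 12 unstimulated libraries. In control mice this was 2.24-fold higher with LPS against a floor of 3 counts. The error of the 7 LPS counts is not included, so the true ratio may be lower. Mmp8, the neutrophil collagenase, had 15 counts with LPS and 15 without in mice labelled Abca7. In control mice it had 39 counts with LPS and 7 without, a ratio of 5.34 (2.36 to 14.2), and it was too low to be tested. Mmp27 had 10 counts and Mmp20, the enamel protease, 1 count over all libraries. The rodent collagenases Mmp1a and Mmp1b and the matrilysin Mmp7 had none.

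**Figure D2:**
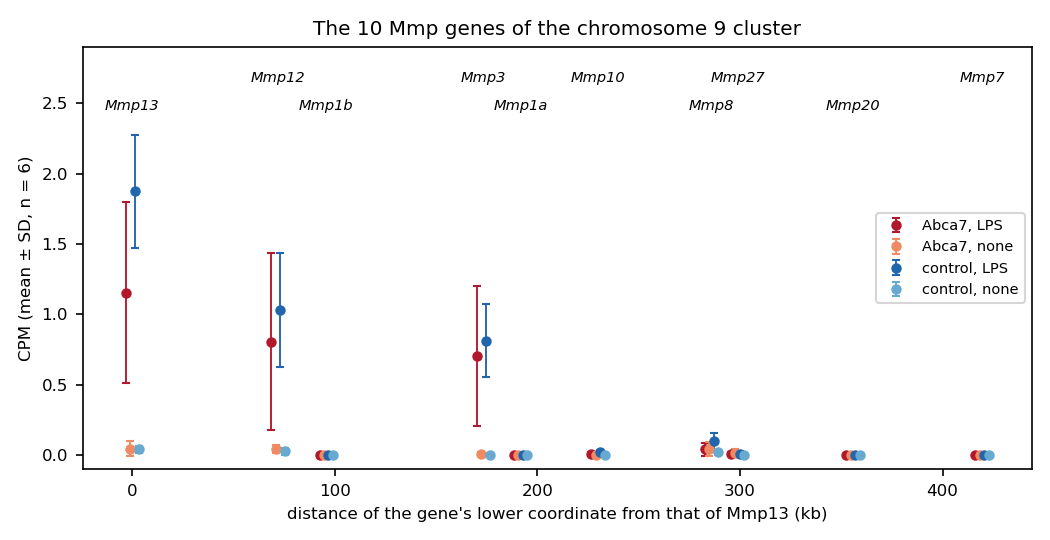
Mean CPM ± SD (n = 6 libraries) of the 10 Mmp genes of the chromosome 9 cluster in the 4 groups, placed by their distance from Mmp13 in kilobases. Mmp13, Mmp12 and Mmp3 stand above 0.7 CPM in both LPS groups, and the 7 genes that missed the count rule lie below 0.1 CPM in every group.

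Adamts1 and Adamts9, both of which can cut versican and aggrecan, rose more than the other Adamts genes in both genotypes. Adamts1 (chr16:85793827-85803113) had 21.6, 50.3 and 61.0 CPM in LPS mice labelled Abca7, against 8.72, 9.66 and 12.2 CPM without LPS. The control mice had 47.4, 59.7 and 71.3 CPM with LPS, against 7.48, 8.44 and 11.6 CPM without. Every LPS library lay above every unstimulated one, and replicate 4 of mice labelled Abca7 was the lowest of the 12 LPS libraries. The log2 fold change was 2.26 ± 0.17 (adjusted p = 4.4e-11) in mice labelled Abca7 and 2.70 ± 0.17 (adjusted p = 1.0e-12) in control mice. Its neighbour Adamts5 (chr16:85858170-85901125) is described below with the aggrecanases.

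Adamts9 (chr6:92772699-92943492) had 17.3, 30.7 and 35.3 CPM in LPS mice labelled Abca7, against 2.95, 4.16 and 4.62 CPM without LPS. It had 31.2, 35.2 and 45.9 CPM in LPS control mice, against 3.20, 4.27 and 5.86 CPM without. The groups did not overlap, and the log2 fold changes were 2.87 ± 0.16 (adjusted p = 1.4e-13) and 3.11 ± 0.16 (adjusted p = 1.5e-14). Antisense genes cover 12% of its exonic bases, and the labels do not say whether counting used strand. Adamts14, a procollagen N-proteinase, was much scarcer. It had 0.981, 1.16 and 1.5 CPM in LPS mice labelled Abca7, against 0.413, 0.475 and 0.713 CPM without, and 0.987, 1.26 and 1.60 CPM in LPS control mice, against 0.252, 0.492 and 0.796 CPM without. LPS and unstimulated libraries did not overlap in either genotype, with log2 fold changes of 1.26 ± 0.20 (adjusted p = 3.9e-05) and 1.32 ± 0.20 (adjusted p = 1.3e-05).

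The inhibitor Timp1 (chrX:20870166-20874735) was the one member of its family that rose in both genotypes. Timp1 had 1.63, 5.17 and 9.30 CPM in LPS mice labelled Abca7, against 0.772, 1.14 and 1.19 CPM without LPS. Levels in control mice were 4.84, 5.64 and 6.64 CPM with LPS, against 0.707, 1.09 and 1.39 CPM without. All LPS libraries lay above all unstimulated ones, although replicate 4 of mice labelled Abca7, at 1.63 CPM, was well below the 4.93 to 9.30 CPM of the other 5. The log2 fold changes were 2.36 ± 0.25 (adjusted p = 3.7e-08) and 2.39 ± 0.25 (adjusted p = 1.9e-08). The gene lies inside Syn1 on the opposite strand without shared exonic bases.

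**Figure D3:**
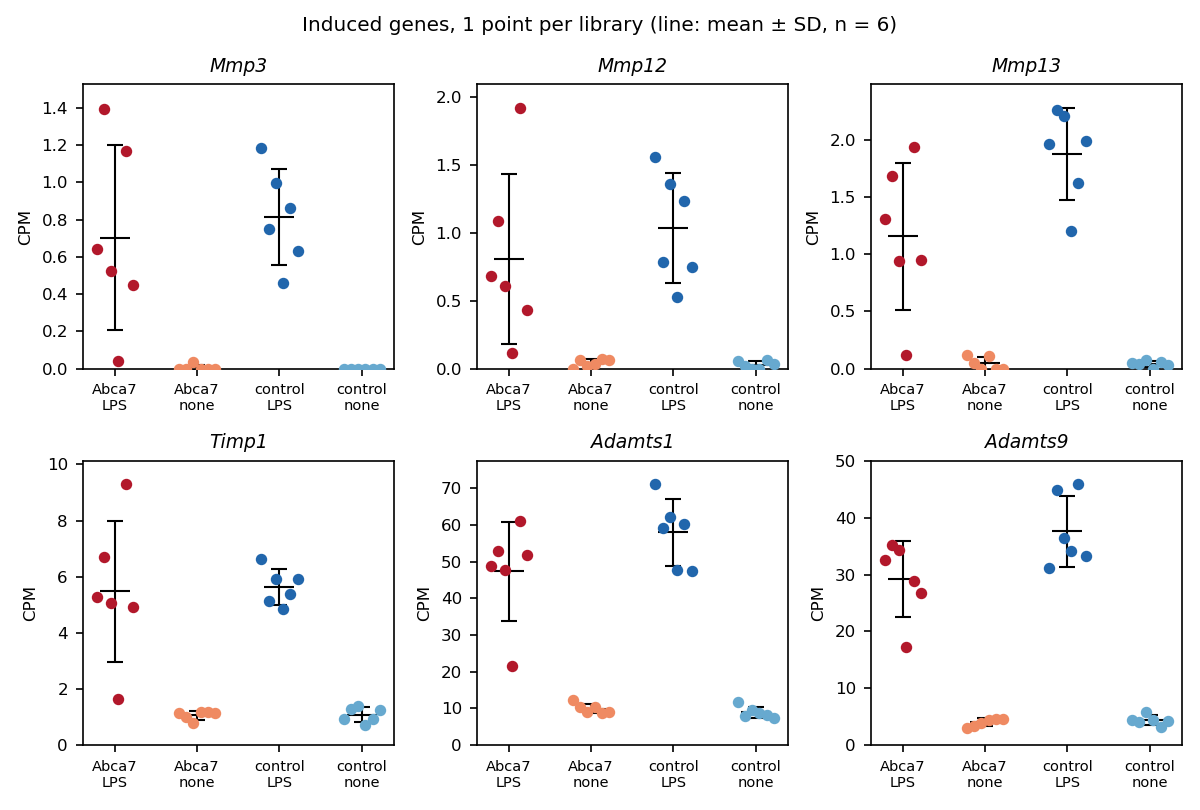
CPM of 6 induced genes in every library, with the mean ± SD of each group of 6. LPS libraries lie above unstimulated ones in both genotypes, and 1 LPS library of the mice labelled Abca7, replicate 4, is the lowest of its group in all 6 panels. For Mmp3 and Mmp13 its raw counts (2 and 6) equal the highest raw count among the unstimulated libraries of that genotype, and only the scaling separates them.

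Replicate 4 of the LPS mice labelled Abca7 was the lowest of its group for Mmp3, Mmp12, Mmp13, Timp1, Adamts1 and Adamts9, and lay inside the range of the other 5 for Adamts10, Adamts20 and Mmp28. Without it, the log2 fold changes in mice labelled Abca7 were 2.40 ± 0.11 for Adamts1, 2.98 ± 0.13 for Adamts9, 2.55 ± 0.17 for Timp1, 4.93 ± 0.43 for Mmp13, 4.32 ± 0.50 for Mmp12 and 6.69 ± 0.61 for Mmp3. All 13 members that passed with it also passed without it, and Adamts8 joined them (adjusted p = 0.0438).

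Among the other aggrecanases the changes were small. Adamts4 (aggrecanase-1) had 25.6, 32.4 and 38.5 CPM in LPS mice labelled Abca7, against 22.1, 26.8 and 32.7 CPM without LPS. It had 32.3, 34.3 and 42.1 CPM in LPS control mice, against 22.8, 26.5 and 33.5 CPM without. The groups overlapped in both genotypes, and it passed in control mice (0.43 ± 0.11, adjusted p = 0.0046) but not in mice labelled Abca7 (0.25 ± 0.11, adjusted p = 0.15). Adamts5 (aggrecanase-2) had 1.74, 2.86 and 3.64 CPM in LPS mice labelled Abca7, against 2.58, 3.11 and 3.25 CPM without. Its levels in control mice were 3.29, 3.90 and 4.51 CPM with LPS, against 1.73, 2.54 and 3.84 CPM without. The log2 fold change was −0.04 ± 0.16 (adjusted p = 0.92) in mice labelled Abca7 and 0.54 ± 0.16 (adjusted p = 0.019) in control mice. The call of Adamts5 in control mice was lost without LPS replicate 4 or without unstimulated replicate 5 (adjusted p = 0.051 and 0.056). Adamts8, also an aggrecanase, had log2 fold changes of 0.30 ± 0.12 (adjusted p = 0.11) in mice labelled Abca7 and 0.41 ± 0.12 (adjusted p = 0.015) in control mice. With age as a factor, Adamts8 also passed in mice labelled Abca7 (log2 fold change 0.43, adjusted p = 0.030). Adamts15 did not pass in either genotype, at −0.10 and −0.12.

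Adamts20, the closest relative of Adamts9, moved less but tightly. It had 18.9, 19.9 and 20.1 CPM in LPS mice labelled Abca7, against 12.6, 15.4 and 16.6 CPM without LPS. LPS control mice had 17.8, 18.5 and 19.1 CPM, against 15, 16.2 and 18.3 CPM without. The groups did not overlap in mice labelled Abca7 (0.38 ± 0.05, adjusted p = 5.8e-06) and overlapped in control mice (0.17 ± 0.05, adjusted p = 0.021). In control mice the call was lost without LPS replicate 4, unstimulated replicate 2 or unstimulated replicate 6, with an adjusted p of 0.051 to 0.061. Adamts2, a procollagen N-proteinase like Adamts14, rose by 0.30 ± 0.08 (adjusted p = 0.011) in mice labelled Abca7 and by 0.28 ± 0.08 (adjusted p = 0.012) in control mice. Its call in mice labelled Abca7 was lost with age as a factor (adjusted p = 0.11) and when only the 12 libraries compared were fitted (0.051). The third procollagen N-proteinase of the family, Adamts3, averaged between 29.1 and 30.5 CPM in the 4 groups and did not pass.

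Adamts10, which is known for a role in fibrillin microfibrils, and Mmp28 (epilysin) were the members that fell. Adamts10 had 19.6, 21 and 22.7 CPM in LPS mice labelled Abca7, against 22.1, 25.9 and 28.8 CPM without LPS, a log2 fold change of −0.30 ± 0.06 (adjusted p = 0.00057). It had 16.1, 17.3 and 19.5 CPM in LPS control mice, against 21.4, 22.2 and 24.7 CPM without, a log2 fold change of −0.36 ± 0.06 (adjusted p = 4.6e-05). Libraries overlapped in mice labelled Abca7 and did not in control mice. Mmp28 had 1.5, 1.77 and 2.27 CPM in LPS mice labelled Abca7, against 2.39, 2.84 and 3.64 CPM without, and 1.59, 1.86 and 2.30 CPM in LPS control mice, against 2.55, 3.46 and 3.52 CPM without. No LPS library reached the lowest unstimulated one of its genotype, and the log2 fold changes were −0.71 ± 0.12 (adjusted p = 0.00013) and −0.76 ± 0.12 (adjusted p = 2.8e-05). An antisense gene covers 12% of the exonic bases of Mmp28.

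Among the other Mmp genes, Mmp19 had 3.49, 4.59 and 4.97 CPM in LPS mice labelled Abca7, against 2.28, 2.92 and 3.86 CPM without LPS. It had, in control mice, 3.90, 4.39 and 5.60 CPM with LPS, against 2.84, 3.26 and 3.93 CPM without. It rose by 0.56 ± 0.12 (adjusted p = 0.0019) and by 0.48 ± 0.12 (adjusted p = 0.0050) on the log2 scale, with 28.3% of its exonic bases shared with genes on the opposite strand. Mmp14, the membrane-bound activator of the Mmp2 precursor, had 5.96, 7.42 and 8.68 CPM in LPS mice labelled Abca7, against 4.03, 5.44 and 7.30 CPM without. Its values were 6.26, 7.33 and 8.49 CPM in LPS control mice, against 5.08, 5.38 and 8.15 CPM without. The log2 fold change was 0.37 ± 0.12 (adjusted p = 0.047) in mice labelled Abca7 and 0.30 ± 0.12 (adjusted p = 0.10) in control mice. The 8.15 CPM came from replicate 1 of the unstimulated control mice, and without that library the value in control mice was 0.41 (adjusted p = 0.012). The call in mice labelled Abca7 was lost on leaving out any 1 of 15 of the 24 libraries (adjusted p up to 0.14); the 9 whose removal kept it were LPS replicates 4 and 6 and unstimulated replicates 3 and 4 of that genotype, LPS replicates 3 and 6 and unstimulated replicates 1, 2 and 6 of the control mice. It was also lost with RLE normalization (adjusted p = 0.051), with no filter on low counts (0.058), with a fit of the 12 libraries alone (0.057) and with age as a factor (log2 fold change 0.25, adjusted p = 0.24).

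The gelatinases, often measured as markers of barrier breakdown, did not pass. Mmp9 (gelatinase B) had 0.861, 1.03 and 1.09 CPM in LPS mice labelled Abca7, against 0.629, 0.912 and 1.05 CPM without LPS. In control mice it had 0.595, 1.20 and 1.5 CPM with LPS, against 0.782, 0.920 and 1.36 CPM without. The groups overlapped, at log2 fold changes of 0.19 ± 0.18 (adjusted p = 0.59) and 0.23 ± 0.17 (adjusted p = 0.42). Mmp2 (gelatinase A) averaged 1.69 ± 0.119 CPM in LPS and 1.93 ± 0.497 CPM in unstimulated mice labelled Abca7 (SD), and 1.71 ± 0.288 and 1.74 ± 0.126 CPM in control mice.

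Timp2 and Timp3 were abundant and moved little. Timp3, the matrix-bound inhibitor that also blocks ADAMTS aggrecanases, had 126, 133 and 162 CPM in LPS mice labelled Abca7, against 126, 128 and 135 CPM without LPS. It had 136, 150 and 167 CPM in LPS control mice, against 114, 122 and 133 CPM without. The libraries overlapped in mice labelled Abca7 (0.08 ± 0.06, adjusted p = 0.41) and did not in control mice (0.29 ± 0.06, adjusted p = 0.00024). Timp3 lies within Syn3, which covers 21.3% of its exonic bases on the opposite strand. Timp2, which with Mmp14 takes part in activating the Mmp2 precursor, had 254, 267 and 279 CPM in LPS mice labelled Abca7, against 241, 252 and 281 CPM without. Control mice had 263, 272 and 295 CPM with LPS, against 216, 257 and 271 CPM without. The log2 fold change was 0.06 ± 0.05 (adjusted p = 0.47) in mice labelled Abca7 and 0.13 ± 0.05 (adjusted p = 0.047) in control mice, and the call in control mice was lost on leaving out any 1 of 18 of the 24 libraries (adjusted p up to 0.14). The 6 whose removal kept it were LPS replicate 6 and unstimulated replicates 2 and 3 of mice labelled Abca7, and LPS replicate 6 and unstimulated replicates 1 and 6 of control mice. The Timp2 call was lost as well with RLE normalization (adjusted p = 0.060), with no filter on low counts (0.069), with the 12 control libraries alone (0.079) and with age as a factor (0.083). Timp4 did not pass in either genotype, at 0.03 and 0.10.

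Choroid plexus markers differed beside the small changes in control mice, and their part in these changes was not tested beyond the covariate fit given here. Of 10 such markers, 7 were higher with LPS in control mice, with a median log2 fold change of 1.25. In mice labelled Abca7 none passed with edgeR or DESeq2, with 1 at an unadjusted p under 0.05. Their summed level had a lowest, median and highest library of 445, 626 and 1006 CPM in LPS control mice, against 209, 215 and 633 CPM in unstimulated control mice (exact permutation test, two-sided, p = 0.011). The same sum in mice labelled Abca7 was 220, 608 and 809 CPM with LPS, against 248, 811 and 920 CPM without (p = 0.43, same exact test). With the log2 Ttr level as a covariate, 10 members passed in control mice, 8 higher and 2 lower. In control mice this level ran close to the stimulus label, except in 1 unstimulated library, so the fit cannot separate them. In that fit 7.46% of all genes passed in control mice, against 17.3% without the covariate. Of the members lost, 6 had smaller log2 fold changes than without the covariate: Adamts2 0.12 (adjusted p = 0.62), Adamts4 0.22 (0.45), Adamts5 0.13 (0.82), Adamts20 0.10 (0.53), Mmp19 0.28 (0.40) and Timp2 0.05 (0.74). Adamts8 was also lost (adjusted p = 0.067), though its log2 fold change was larger, at 0.53 with the covariate against 0.41 without, while Timp3 kept 0.29 (adjusted p = 0.026). Without replicate 1 of the unstimulated control mice, the library with the high Ttr level, 21 members passed in control mice. The 17 were among them, joined by Adamts19, Mmp14, Mmp15 and, lower with LPS, Mmp17. The count over all genes in that fit is not given here, so the gain is not read as particular to the members.

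Adamts19 varied widely between libraries of 1 group. It had 1.14, 2.06 and 3.0 CPM in LPS mice labelled Abca7, against 0.369, 0.796 and 1.66 CPM without LPS, and 0.648, 3.20 and 5.15 CPM in LPS control mice, against 0.710, 1.27 and 4.14 CPM without. The log2 fold change was 1.24 ± 0.46 (adjusted p = 0.080) in mice labelled Abca7 and 0.77 ± 0.42 (adjusted p = 0.23) in control mice. In mice labelled Abca7 it passed when only the 12 libraries compared were fitted (adjusted p = 0.012) and with the Ttr level as a covariate (0.015).

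**Figure D4:**
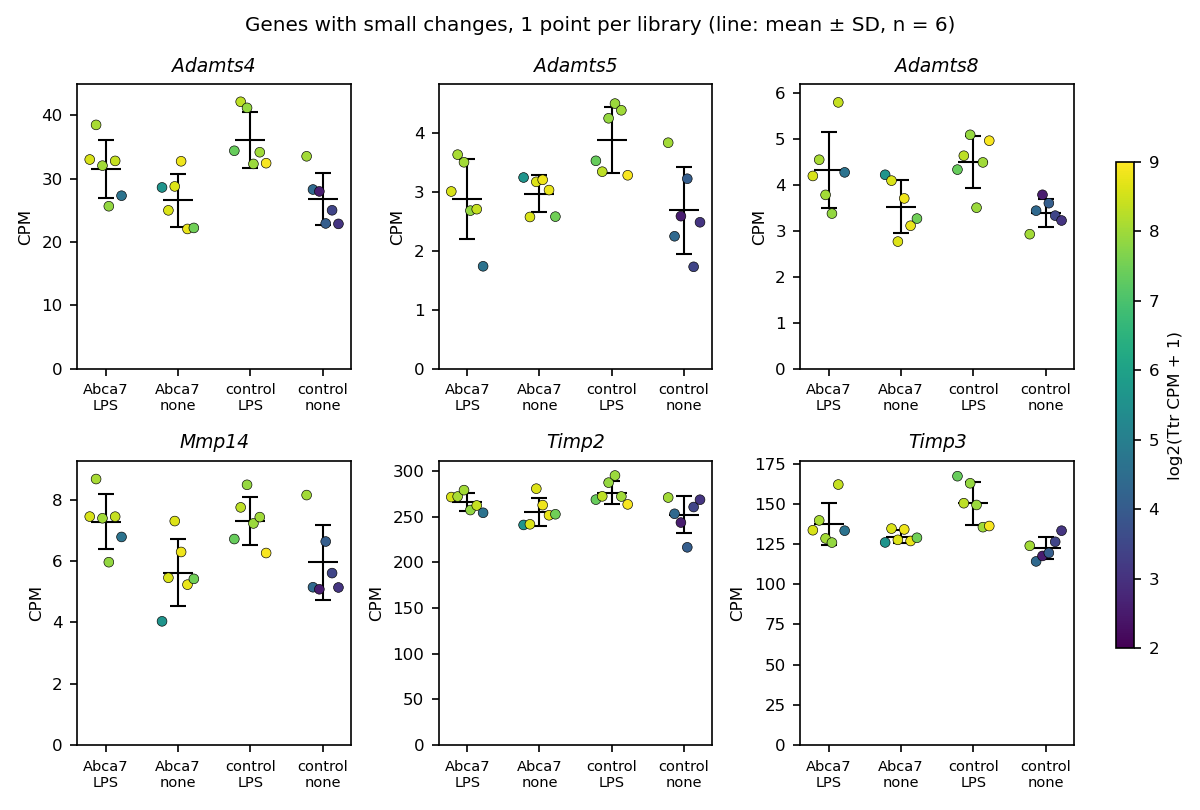
CPM of 6 genes with small changes in every library, with the mean ± SD of each group of 6; colours give the log2 Ttr level (CPM plus 1), a choroid plexus marker. In the unstimulated control mice 5 libraries are dark (Ttr at 4.94 to 19.7 CPM), and the sixth, with 261 CPM, has the highest level of its group for Adamts4, Adamts5, Mmp14 and Timp2.

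Levels were compared between genes as mean CPM per kilobase of the gene length listed in the authors' table, over all 24 libraries. Timp2 had the highest level of the 44 genes at 67.3 CPM per kilobase, followed by Mmp17 at 39.6, Timp3 at 16.6, Timp4 at 14.3 and Mmp24 at 12.4. Some listed lengths were shorter than the exonic bases in GENCODE M21, at 1416 against 5894 for Timp4 and 4395 against 6619 for Mmp17. The place of Timp4 therefore depends on the length used. Mmp17, which is held at the membrane by a lipid anchor, and Mmp24, which has a transmembrane segment, were the most abundant enzymes in each of the 4 groups. The place of Adamts1 depended on the stimulus: it stood above Adamts4 with LPS, where Adamts4 had 6.56 CPM per kilobase in mice labelled Abca7 and 7.51 in control mice, and below the transmembrane Mmp15 without LPS, where Mmp15 had 4.12 and 3.87 in the same genotypes. Mmp17, Mmp24, Mmp15, Mmp16 and Adamts3 did not pass in either genotype, at log2 fold changes between −0.13 and 0.13. Per kilobase, LPS brought Adamts1 to 8.92 CPM in mice labelled Abca7 and 10.9 CPM in control mice, against 1.87 and 1.68 CPM in the same genotypes without LPS. Timp1 reached 6.17 and 6.35 CPM per kilobase with LPS in mice labelled Abca7 and control mice, against 1.20 and 1.22 without. Mmp13 reached 0.431 and 0.70 CPM per kilobase with LPS, against 0.0171 and 0.0158 without, far below Mmp17 and Mmp24.

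**Figure D5:**
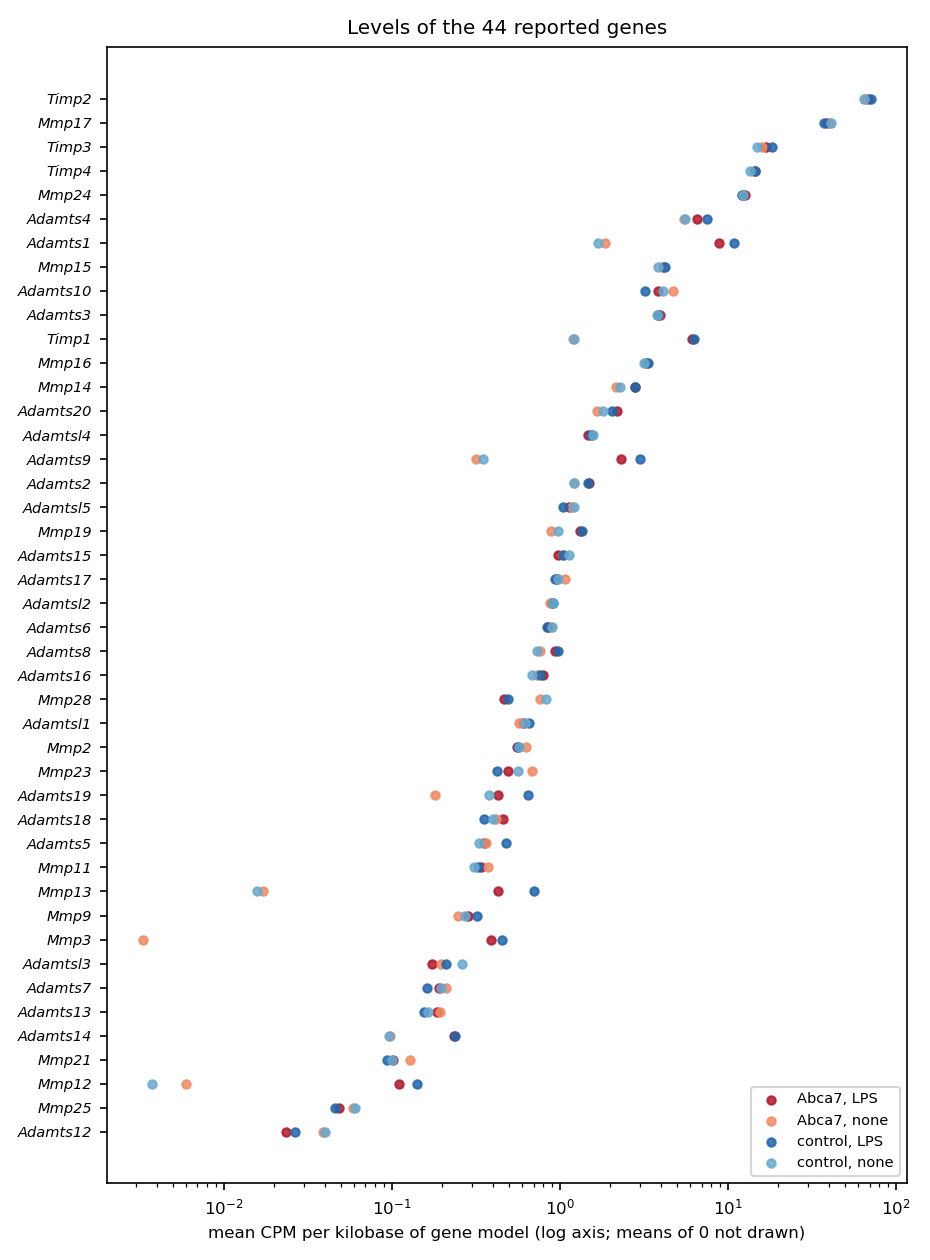
Mean level of the 44 reported genes in each of the 4 groups, in CPM per kilobase of the listed gene length on a log axis, ordered by the mean over all libraries. Timp2 and Mmp17 lead, the LPS points of Adamts1, Adamts9, Timp1, Mmp13, Mmp12 and Mmp3 stand to the right of the unstimulated ones, and the unstimulated control mean of 0 for Mmp3 is not drawn.

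The genotype label made no difference that passed for any of the 44 members. With edgeR none passed under LPS, where 0% of all genes passed, and none without LPS, where 0.032% passed. At an unadjusted p under 0.05 there were 5 members under LPS and 4 without, and 3 for the interaction, where 0% of all genes passed. Such a p was reached by 7.99% of all genes under LPS, 6.51% without LPS and 3.4% for the interaction. With DESeq2, Adamts10 passed under LPS (adjusted p = 0.039) and no member passed without LPS or for the interaction. Adamts10 had 19.6, 21 and 22.7 CPM in LPS mice labelled Abca7, against 16.1, 17.3 and 19.5 CPM in LPS control mice, and these libraries did not overlap. Its log2 difference was 0.26 ± 0.06 under LPS (edgeR adjusted p = 0.27) and 0.21 ± 0.06 without LPS (adjusted p = 0.39), where 25.9 ± 2.51 CPM in mice labelled Abca7 stood against 22.5 ± 1.18 CPM in control mice (SD). The other members with an unadjusted p under 0.05 under LPS were Adamts18 (0.37 ± 0.13), Adamts5 (−0.43 ± 0.16), Adamts9 (−0.37 ± 0.14) and Timp3 (−0.13 ± 0.05). Without LPS they were Adamts19 (−1.07 ± 0.46), Adamtsl3 (−0.43 ± 0.17) and Adamts20 (−0.11 ± 0.05).

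The interaction was estimated at −0.58 ± 0.23 for Adamts5, −0.21 ± 0.08 for Timp3 and 0.20 ± 0.07 for Adamts20, each with an adjusted p of 1.0. For the induced genes it was −0.44 ± 0.23 for Adamts1, −0.24 ± 0.22 for Adamts9 and −0.03 ± 0.35 for Timp1, and −0.29 ± 0.15 for Adamts1 without replicate 4 of the LPS mice labelled Abca7. For Mmp13 it was −0.70 ± 1.03 and for Mmp12 −1.0 ± 1.03, standard errors that reflect counts near 0 without LPS.

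Genes that act with these enzymes were counted as lists. Over all genes tested, 11.8% passed in mice labelled Abca7 and 17.3% in control mice. Of 8 tested genes of plasminogen activation, a system that activates Mmp precursors, 4 rose and 1 fell in mice labelled Abca7, and 5 rose and 1 fell in control mice. The receptor gene Plaur averaged 7.48 ± 2.77 CPM in LPS and 0.741 ± 0.216 CPM in unstimulated mice labelled Abca7 (SD), and 9.01 ± 1.43 and 0.599 ± 0.0703 CPM in control mice. Its log2 fold changes were 3.32 ± 0.24 (adjusted p = 4.0e-11) and 3.90 ± 0.25 (adjusted p = 1.6e-12). Serpinf2, which codes for the plasmin inhibitor alpha-2-antiplasmin, rose by 2.0 ± 0.43 and 3.0 ± 0.43, while Plau, which codes for urokinase, fell by 0.59 and 0.81.

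Among 10 genes for activators, other inhibitors and clearance receptors, 3 rose and 2 fell in each genotype. A2m, which codes for the broad protease trap alpha-2-macroglobulin, averaged 22.6 ± 10.04 CPM in LPS and 3.65 ± 0.814 CPM in unstimulated mice labelled Abca7, and 32.8 ± 7.63 and 2.65 ± 1.17 CPM in control mice. Tfpi2, a protease inhibitor of the matrix, had log2 fold changes of 3.95 ± 0.44 and 5.0 ± 0.46, and Cd44, a hyaluronan receptor, of 0.59 ± 0.13 and 0.99 ± 0.13. The membrane-anchored Mmp inhibitor Reck fell by 0.24 and 0.23 and the Mmp inducer Bsg by 0.25 and 0.18. Of 11 tested ADAM genes, the membrane-bound relatives, Adam9 rose slightly in both genotypes (0.11 and 0.09), Adam8 fell in mice labelled Abca7 and Adam12 fell in control mice. In control mice these 2 of 11 were close to the 17.3% of all genes that passed.

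Genes for substrates of these enzymes were counted in the same way. Of 11 genes for lecticans and perineuronal net components, none passed in mice labelled Abca7 with edgeR, with 3 at an unadjusted p under 0.05 and 1 with DESeq2. In control mice Vcan (versican) rose by 0.17 ± 0.05 and Ncan (neurocan) fell by 0.22. These were the only 2 of the 11 to pass there, close to the 17.3% of all genes that passed. Of 14 genes of the vascular basement membrane, 4 rose and 3 fell in mice labelled Abca7, and 4 rose and 2 fell in control mice. The collagen genes Col4a1 (0.68 ± 0.07 and 0.80 ± 0.07) and Col4a2 (0.35 ± 0.07 and 0.44 ± 0.07) were among those that rose, and the laminin gene Lamb2 (−0.45 ± 0.05 and −0.42 ± 0.05) among those that fell.

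Markers of several cell types that could carry these genes also differed between LPS and unstimulated mice. The share of all genes that passed was 11.8% in mice labelled Abca7 and 17.3% in control mice. Of 10 endothelial markers, 2 rose and 7 fell in each genotype, and their summed level ran from 139 to 161 CPM in LPS and from 196 to 231 CPM in unstimulated mice labelled Abca7, and from 145 to 155 and from 204 to 219 CPM in control mice. Of 8 microglial markers, 1 rose and 7 fell in each genotype. Of 10 markers of meningeal fibroblasts, 1 rose and 4 fell in mice labelled Abca7, and 1 rose and 5 fell in control mice. Of 10 neutrophil markers, 3 could be tested and S100a8 and S100a9 rose in both genotypes, while Elane had no count in any library. The summed neutrophil level was 0.961 to 2.30 CPM in LPS and 0.476 to 1.33 CPM in unstimulated mice labelled Abca7, and 1.21 to 3.54 and 0.503 to 1.06 CPM in control mice. Of 7 tested monocyte markers, 3 rose in mice labelled Abca7 and 5 in control mice, and none fell. That list includes Vcan and Fn1, which are also counted above among the lecticans and the vascular basement membrane. Without LPS, control mice averaged 27.7 and 63.1 CPM of them, beside a summed median of 92.8 CPM for the list. The monocyte count is thus not one of separate genes. Of 8 astrocyte markers, 2 and 5 rose, and of 9 markers of pericytes and smooth muscle, 2 and 3 fell. Of 7 markers of oligodendrocyte precursors, 1 fell in mice labelled Abca7, and 2 rose and 2 fell in control mice. Of 7 oligodendrocyte markers, 1 rose in control mice, and 1 passed in mice labelled Abca7 with DESeq2 only. No neuronal marker of 8 passed with edgeR or DESeq2, with 1 and 2 at an unadjusted p under 0.05. The part of these shifts in the changes of the proteases and inhibitors was not tested.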

How the data were processed

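Cortical RNA of 24 mice was sequenced, 1 library per mouse. The authors deposited 1 table of unnormalized whole-number read counts for 43346 genes, with mm10 coordinates. Per the labels' protocols, RNA was extracted with TRIzol and an RNeasy kit with DNase. Per the series design text, sequencing used an Illumina HiSeq 4000 and counting used MAP-RSeq 2.1.1. STAR 2.5.2b aligned the reads to mm10, per the submitters' processing notes. No source used here gives the annotation, the strand setting or the handling of reads with several matches, so counts of genes that overlap, or that share sequence, cannot be divided between them.

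Genes were kept with filterByExpr by group (21891 genes) and scaled with TMM factors. A model with 1 term for each of the 4 groups was fitted to all 24 libraries with edgeR 4.0.16 (R 4.3.3), after the code was tested on simulated data. There were 5 contrasts, each with the quasi-likelihood F test; p-values were adjusted by Benjamini-Hochberg across the 21891 genes and held against 0.05. Tests are two-sided and adjusted p-values are from edgeR unless DESeq2 (version 1.42.0) is named. Standard errors were derived from the F statistic. Means of CPM use no added count. Ratios of summed counts carry exact 95% intervals, which cover counting error only, since reads are not independent molecules. A group at 0 was set to a floor of 3 counts over the group. The count of the LPS group was then taken as exact, so such a ratio is not a full lower bound. The smallest p of the exact permutation test of 6 against 6 libraries is 0.0022. The 60 pairs of libraries within groups differed by more than sampling noise, so that none was counted once.

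Genes described singly are the 18 members that passed in either genotype, all Timp genes, the 6 most abundant others, and up to 3 genes per pathway list with the largest change. Other genes named (the gelatinases, the rest of the chromosome 9 cluster, Adamts12, Adamts15, Adamts18, Adamts19, Adamtsl3, Plau, Reck, Bsg and single markers) were chosen after their values were seen. The members and the 5 pathway and 11 marker lists were chosen with earlier results of these data known. Overlaps come from GENCODE M21. Promoters come from a partial set of RefSeq promoters (GRCm38.p6), in which 36 of the 51 genes were searched. Members on chromosome 18 (Adamts19) were left out of that search. Alternatives were RLE scaling, DESeq2, no filter, only the 12 libraries compared, age as a factor, the Ttr level as a covariate, and leaving out each library. A gene of the plasminogen activation list is not reported here.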

Additional observations from a re-analysis of the deposited data

Results flagged for a closer look

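Of 95 sets of 6 libraries (a gene in a group), 7 held 1 library whose gap to the others was above Dixon's critical value, where chance gives about 1 in 20. In the LPS mice labelled Abca7, replicate 4 stood apart with 21.62 CPM of Adamts1, against 47.84 to 60.96 in the other 5, and with 3.492 CPM of Mmp19, against 4.429 to 4.975. In the unstimulated mice labelled Abca7, replicate 3 stood apart with 14.77 CPM of Adamts2, against 9.775 to 11.5 in the others, and with 0.03589 CPM of Mmp3, which was at 0 in the others. The Mmp3 value rested on 2 counts. With the other 5 libraries at 0, any count would have been flagged, so that flag carries no weight. Replicate 6 of the LPS control mice had 187.5 CPM of Mmp17, against 152.6 to 164.5. Replicate 4 of the unstimulated control mice had 24.75 CPM of Adamts10, against 21.44 to 22.51. Replicate 1 of the unstimulated control mice, the one with a high Ttr level, had 22.95 CPM of Mmp15, against 14.69 to 17.41. The origin of these gaps was not tested.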

How the results depend on the processing

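The LPS increases of Adamts1, Adamts9, Adamts14 and Timp1 and the LPS decreases of Mmp28 and Adamts10 passed in both genotypes under every alternative, and no called change turned its direction. The increases of Mmp3, Mmp12 and Mmp13 did so too, except that in the fit of the 12 libraries of mice labelled Abca7 they were filtered out as too low. Members called in mice labelled Abca7 numbered 9 to 14 over the alternatives (12 to 14 over single libraries left out), against 13 as reported. In control mice they numbered 16 or 17 under 5 alternatives and 10 with the Ttr level as a covariate, which also took the count over all genes to 1634, against 3790. Leaving out single libraries gave 14 (without LPS replicate 4) to 21 members (without unstimulated replicate 1), and the counts over all genes in these fits are not given here. Under LPS the genotype label gave 1 member with DESeq2 and 0 otherwise. Over all genes, the genotype label under LPS gave 37 genes with DESeq2 and 2 with age as a factor, against 0. Without LPS it gave 31 with DESeq2, 3 from the 12 libraries compared, 49 with age as a factor and 3 with the Ttr level, against 7, and 2 to 38 over single libraries left out. The interaction gave 0 to 7 genes over single libraries left out. No paired analysis was possible because the labels carry no replicate numbers shared between groups. Depth limits Mmp3, Mmp12 and Mmp13 without LPS, with 0 to 15 counts per group, and the untested cluster genes.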
